A study of Mus musculus with 4 samples.

Results

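Trim33 occupancy was described at Il6ra, Il6st, Stat3 and Socs3, the genes of the IL-6 receptor chains, of the transcription factor that the receptor activates and of the feedback inhibitor that it induces. The members were the peaks whose summit lay in the mm10 RefSeq body of 1 of these 4 genes or within 10 kb of it. This gave 18 peaks of the 27050 in the deposited list (0.0665%), and no peak counted for more than 1 of the 4 genes. Chromatin immunoprecipitation with sequencing (ChIP-seq) was done with a Trim33 antibody on T helper 17 (Th17) cells, which make IL-17. Naive CD4+ T cells from spleen and lymph nodes of C57BL/6 mice had been cultured on plates coated with anti-CD3 and CD28, in medium holding IL-6, TGF-b and antibodies to IL-4 and IFN-g. The series holds 2 Trim33 ChIP libraries and 2 input DNA libraries from such cells, and the labels give no genetic or drug treatment. The list was called on the merged ChIP replicates, so each peak has 1 value, no value has an error between cultures and no test between samples was possible.

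IL-6 binds its own receptor chain, encoded by Il6ra, and this pair then joins gp130, the signalling chain that several cytokines share and that Il6st encodes. Janus kinases on gp130 phosphorylate STAT3, which enters the nucleus and binds DNA, and in CD4 T cells this signal together with TGF-beta leads towards the Th17 fate. Socs3 is switched on by STAT3 and its product binds gp130 and the kinases to end the signal. Trim33 is a nuclear ubiquitin ligase of the TRIM family that works with SMAD proteins in TGF-beta signalling. The peak list holds no expression values, so the labelled cell type could not be checked against its markers.

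The promoters of Stat3 and Socs3 are shown because a Trim33 summit lay in each of them, and that of Il6st because none did. Each runs 5′ to 3′ on the strand of the gene, over 300 bases of the build GRCm38.p6 (mm10), with the RefSeq start site as base 251. The windows are chr11:100939491-100939790 on the minus strand for Stat3, chr11:117969317-117969616 on the minus strand for Socs3 and chr13:112463820-112464119 on the plus strand for Il6st. Capitals mark matches to the motifs described further on, the palindrome bound by STAT proteins in Socs3 and GC boxes in all 3.
Stat3: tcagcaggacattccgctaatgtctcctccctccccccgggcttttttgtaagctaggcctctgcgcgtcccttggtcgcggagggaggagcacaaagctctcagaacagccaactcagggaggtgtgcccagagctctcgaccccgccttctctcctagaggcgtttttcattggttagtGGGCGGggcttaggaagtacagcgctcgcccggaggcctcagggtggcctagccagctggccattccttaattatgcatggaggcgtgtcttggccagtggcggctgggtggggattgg
Socs3: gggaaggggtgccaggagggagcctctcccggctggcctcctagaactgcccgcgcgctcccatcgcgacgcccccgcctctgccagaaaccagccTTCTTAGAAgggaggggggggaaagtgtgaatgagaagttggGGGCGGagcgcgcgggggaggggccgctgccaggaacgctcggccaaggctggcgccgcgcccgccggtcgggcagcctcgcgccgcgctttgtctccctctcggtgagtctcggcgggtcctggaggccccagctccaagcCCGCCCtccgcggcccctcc
Il6st: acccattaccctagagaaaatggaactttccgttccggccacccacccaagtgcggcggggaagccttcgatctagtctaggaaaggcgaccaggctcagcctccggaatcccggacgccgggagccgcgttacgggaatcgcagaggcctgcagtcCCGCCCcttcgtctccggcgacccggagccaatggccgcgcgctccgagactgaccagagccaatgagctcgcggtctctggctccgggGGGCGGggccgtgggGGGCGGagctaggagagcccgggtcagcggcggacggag

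The 4 loci differed in how many summits they held and in where these lay along the gene. Il6ra had 11 summits, Stat3 and Socs3 had 3 each and Il6st had 1. All 4 thus held a summit, where 53.9% of the 21887 protein-coding genes did. At Stat3, Socs3 and Il6ra a summit stood at a gene end, that is, at most 1000 bp from either end of the gene. This was 3 of 4 genes, where 33.4% of all genes had such a summit, and Il6st had none there. A summit of 10-fold or more was found at Stat3 and Il6ra, 2 of 4 against 10.1% of genes. With 4 genes these counts describe the loci and no share can be read from them. Of the 18 summits, 13 lay inside the gene body and 5 in the flanks.

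**Figure D1:**
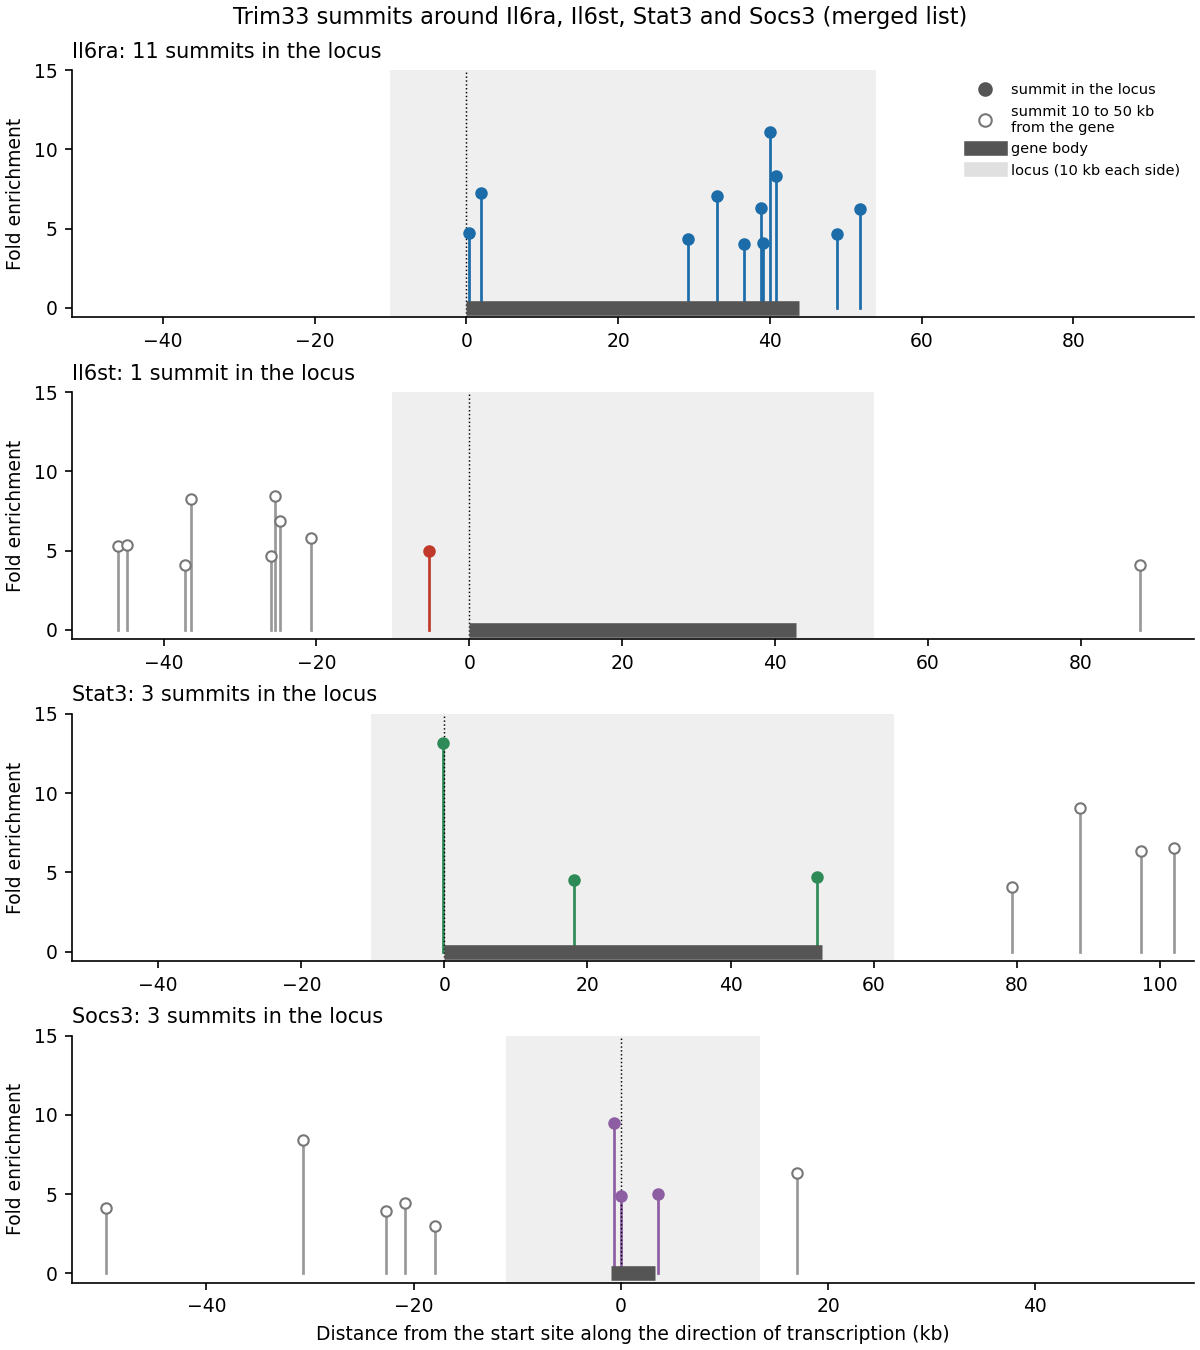
Trim33 summits around the 4 genes, as distance in kb from the RefSeq start site along the direction of transcription against the authors' fold enrichment. Filled points are summits in the locus, open points lie 10 to 50 kb from the gene, the dark bar is the gene body and the shaded span the locus. The Stat3 and Socs3 maxima of 13.1-fold and 9.47-fold stand near the start sites, the Il6ra maximum of 11.1-fold near the 3′ end, and Il6st has 1 filled point at 4.97-fold.

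Fold enrichment is the authors' value for a peak, read here as the signal at the summit over the background of the peak caller. It is used here only to describe and rank peaks within the list. The 18 summits spanned 4.02-fold to 13.1-fold, and their median was 4.99 (quartiles 4.67 and 7.20), against 6.00 (quartiles 4.87 and 7.76) for all peaks. Of the 18, 8 reached the median of the list and 2 reached 10-fold, a height that 11.1% of all peaks reached. The median −log10 q was 11.3 in the loci and 11.2 in the list, and the median width 238.5 bp in the loci and 227 bp in the list. The pooled median of the loci was therefore somewhat below that of the list in fold and close to it in −log10 q. Il6ra gave 11 of the 18 peaks, and its own median fold of 6.24 was above that of the list. The medians of Stat3 (4.68), Socs3 (5.02) and Il6st (4.97, from 1 peak) were below it. The highest peaks of Stat3, Il6ra and Socs3 stood above all the others.

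**Figure D2:**
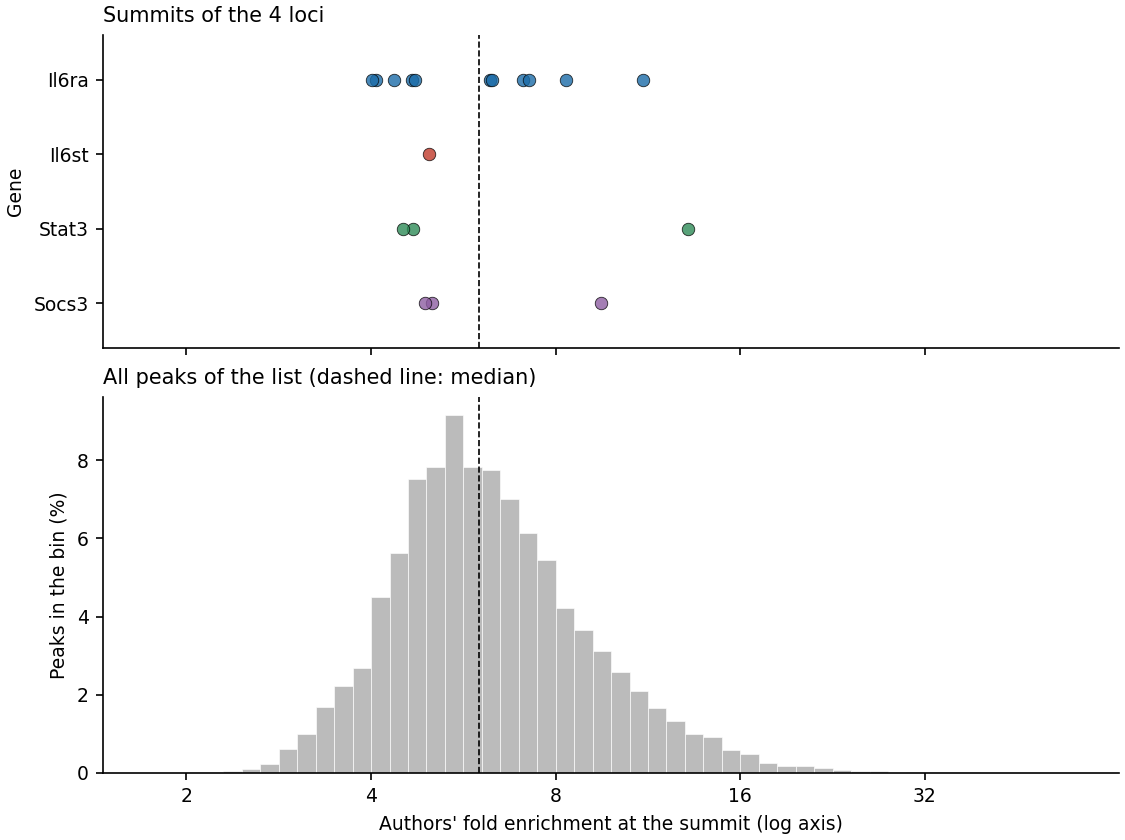
The authors' fold enrichment on a log axis, for the summits of each of the 4 loci above and for all 27050 peaks below, as the percentage of peaks in each bin. The dashed line is the median of the list, 6.00, and 8 of the 18 points lie to its right.

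Il6ra encodes the chain that binds IL-6 and lies on chromosome 3 from 89869324 to 89913196, on the minus strand, so its start is at the higher coordinate. Its 11 summits fell into 3 places: 2 near the start, 7 towards the 3′ end inside the gene and 2 beyond the 3′ end. Between the start and the 3′ group, 27354 bp separated neighbouring summits. In all, 112 protein-coding genes (0.512%) had 11 or more summits in their locus. Some of the 11 peaks lay close together, with as little as 78 bp free between neighbours. The number at Il6ra was 6 when only peaks at or above the median fold, or at or above the median −log10 q, were counted. No share of all genes is given for that stricter number. Per 10 kb of locus Il6ra had 1.72 summits, a density that 0.644% of protein-coding genes reached.

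At the start of Il6ra, a summit of 4.72-fold lay 325 bp downstream of the start site and a summit of 7.25-fold lay 1873 bp downstream. The nearer peak covered 89912713 to 89912945 and did not reach the 300-base promoter window. It was also the weaker one, with a −log10 q of 5.74 against 14.5 for the farther peak. The strongest signal of the gene was thus not at its start.

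The highest Il6ra peak had 11.1-fold enrichment and a −log10 q of 30.7, at 89872965 to 89873242 on chromosome 3. Its summit lay 40067 bp into the gene and 3805 bp from the 3′ end, and it ranked 2010 of all peaks by fold. The next highest, of 8.32-fold, had its summit only 738 bp away and nearer to the 3′ end. The other 5 of this group had 4.08-fold, 6.29-fold, 4.02-fold, 7.07-fold and 4.36-fold enrichment, at 4802, 5038, 7321, 10867 and 14645 bp from the 3′ end. Each of the 7 summits also lay in the span of Gm46811, a long non-coding RNA gene that RefSeq places at 89872104 to 89890243, inside Il6ra. Occupancy there can belong to either gene and the list cannot tell them apart. Exons were not used here, so an intron could not be told from an exon.

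The 2 summits beyond the 3′ end of Il6ra lay between it and She, a gene of an adaptor protein. They had 4.67-fold enrichment at 5041 bp and 6.24-fold enrichment at 7942 bp from Il6ra. The second was nearer to She, at 2536 bp, and was the 1 summit of the 18 for which another protein-coding gene was closer. No further summit lay within 50 kb of Il6ra.

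Il6st encodes gp130 and lies on chromosome 13 from 112464070 to 112506860, on the plus strand. The list held no summit in the gene body and none in the promoter window. Its single summit, of 4.97-fold and a −log10 q of 11.3, lay 5308 bp upstream of the start at 112458671 to 112458859. It ranked 19660 of the list by fold. Within 10 kb the genes of the receptor chains thus differed, with 11 summits at Il6ra and 1 at Il6st, although the genes are of like length (43873 and 42791 bp). The size of this gap rests on the flank, though Il6ra had the higher number at each flank used. With 50 kb on each side Il6ra had 11 summits, Il6st 10, Socs3 9 and Stat3 7.

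Stat3 encodes the transcription factor that carries the IL-6 signal and lies on chromosome 11 from 100886806 to 100939594, on the minus strand. Its highest peak, at 100939589 to 100939933, had 13.1-fold enrichment and a −log10 q of 57.9. This was the highest peak of the 4 loci by either value, and it ranked 1024 of the list by fold and 373 by −log10 q. The summit lay 214 bp upstream of the start site, at base 37 of the sequence printed above, and the peak covered bases 1 to 202 of it. A summit was found in 16.5% of the 32851 RefSeq promoter windows, and in 2.59% of those with one it was as high by fold as at Stat3. By −log10 q this share was 0.554%. Gm46295, a long non-coding RNA gene at 100938338 to 100940242, spans the same summit.

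The other summits of Stat3 were low. One of 4.51-fold lay inside the gene, 18092 bp downstream of the start, and 1 of 4.68-fold lay inside it 628 bp from the 3′ end. The 3′ neighbour Stat5a, which encodes another STAT protein, ends 1637 bp from Stat3 and was 2265 bp from that summit. With 3 summits Stat3 had a number that 15.9% of protein-coding genes reached or passed, while 3.50% of them reached its highest fold.

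Socs3 encodes the inhibitor that ends signalling through gp130. It is a short gene on chromosome 11 from 117966079 to 117970336, on the minus strand, and its 3 summits all lay at a gene end. Of all protein-coding genes 0.621% had 3 or more summits at their ends. The Socs3 summits lay 276, 308 and 981 bp from the nearest end of the gene body. The last of these was only just within the limit of 1000 bp. It lies outside the alternative gene-end window of 500 bp, for which no share of genes with 3 summits is given. The highest had 9.47-fold enrichment and a −log10 q of 23.1 at 117969899 to 117970159. It lay 694 bp upstream of the start site that the promoter window uses, but inside the RefSeq gene body, which begins farther upstream. The second summit, 981 bp from a gene end, was 11 bp downstream of the start site, at base 262 of the printed sequence. Its peak lay on the start site itself and covered all 300 bases. It was wide rather than high, 575 bp with 4.90-fold enrichment and a −log10 q of 13.03. Of the promoter windows with a summit 72.9% had one as high by fold, with a median of 5.94-fold, and 42.7% by −log10 q. Peaks of that width or more made up 3.28% of the list. The third, of 5.02-fold, lay 308 bp beyond the 3′ end.

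**Figure D3:**
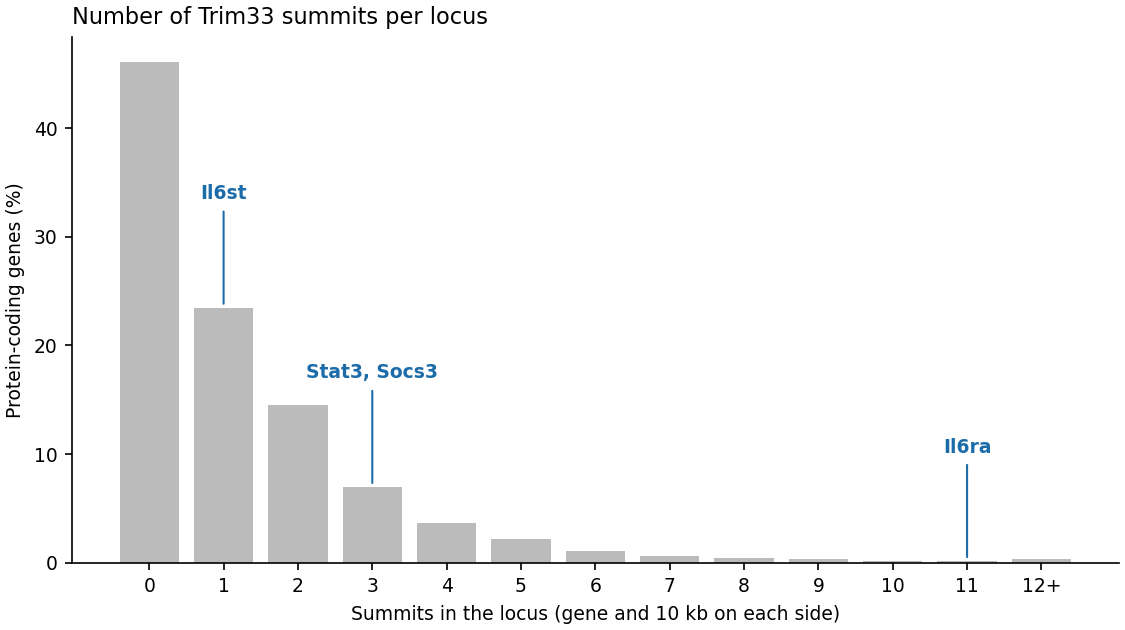
Percentage of the 21887 protein-coding genes by the number of Trim33 summits in the locus, with the 4 genes marked at their own numbers. Il6st (1 summit) and Stat3 and Socs3 (3 each) stand where many genes do, and Il6ra (11) in the thin upper end. The counts are not scaled to locus length. Per 10 kb of locus Socs3 had 1.24 summits, a density that 2.28% of genes reached, while Stat3 had 0.412 (22.5% of genes).

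The start sites of Stat3, Socs3, Il6ra and Il6st all lie in sequence rich in G and C. GC content of the 300-base windows was 60.7% at Stat3, 73.3% at Socs3, 66.0% at Il6ra and 68.3% at Il6st, against a median of 52.7% over all 32851 windows and 64.3% over the 5413 windows with a summit. They held 15, 31, 25 and 33 CG dinucleotides in this order, where the median was 7 over all windows and 25 in those with a summit. The window of Il6st, without a summit, was thus above the medians of the windows with one in both features. The windows of 1 gene can overlap, so they are not independent.

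In all, 9 motifs were searched on both strands. The STAT palindrome TTCNNNGAA had 1 match in the 4 windows, TTCTTAGAA at bases 97 to 105 of the Socs3 window, 165 bases from the summit there. Of all windows 8.30% held it, and of those with a summit 6.74%. The GC box GGGCGG, bound by factors of the Sp family, was found in 3 of the 4 windows, once in Stat3, in a pair in Socs3 and in 3 copies in Il6st. It was found in 35.7% of all windows and 74.4% of those with a summit. In Stat3 it began 145 bases from the summit. The E-box CACGTG had 1 match, at bases 227 to 232 of the Il6ra window, and occurred in 7.15% of all windows. No overlap between matches occurred in these windows.

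The short SMAD site CAGAC, present in 49.6% of all windows, was in none of the 4. Neither were the SMAD palindrome GTCTAGAC (0.213% of windows), the AP-1 motif TGANTCA (7.81%), the CRE TGACGTCA (1.79%), the RUNX core TGTGGT (16.8%) or the STAT motif with a spacer longer by 1 base (6.95%). These are matches of letters in 300 bases, and most of the 18 summits lay outside the windows, in sequence not used here.

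The other genes of gp130 and STAT3 signalling were then set beside the 4. Of 31 ligand, receptor, protease, kinase, phosphatase, inhibitor and STAT genes, 27 held a summit (53.9% of all protein-coding genes did), 17 had one within 1000 bp of a gene end (33.4%) and 6 reached 10-fold (10.1%). The median of the highest fold was 8.28 over the 27 and 7.03 over all genes with a summit. Loci were not matched on length, and the median length was 45819 bp in the list and 37169 bp over all genes. With the gene body alone 19 of the 31 held a summit, against 33% of all genes. When a summit counted only for its nearest gene, 23 did, against 44.6%.

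Among the ligands, 6 of 7 held a summit, and Il21, a cytokine that Th17 and follicular helper T cells make and that signals through STAT3, was the highest at 11.6-fold, 424 bp from its start. Il6 itself held no summit. Of 8 receptor genes 6 held one, from 4.23-fold to 8.87-fold, so none reached the height of Il6ra. The receptor genes without a summit were Lifr and Osmr, whose products pair with gp130 to bind LIF and oncostatin M. Within 10 kb Il6st thus held 1 peak, low in fold but near the list median in −log10 q, and these partner genes held none. Adam10 and Adam17, proteases that shed the IL-6 receptor from cells, both held a summit at a gene end, of 5.43-fold and 8.97-fold.

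The kinase gene Jak2, whose product binds gp130, had a higher peak than any of the 4 genes, with 20.6-fold enrichment at 159 bp from the start site. Jak1 and Jak2 had 9 summits each and Tyk2 had 2. Stat5a and Stat5b shared their highest peak, of 9.03-fold, which lay in Stat5b 85 bp from a start site. All 4 phosphatase genes held summits. The highest, of 11.0-fold, lay outside Ptpn6, which encodes SHP-1, at 6886 bp from the gene. Of the inhibitors, Cish, another gene of the SOCS family, had 10 summits, among which a peak of 10.8-fold at 9476 bp from the gene was the highest, and Socs1 had 3 up to 10.5-fold with its maximum inside the gene. Pias1, a SUMO ligase that inhibits STAT proteins, held none.

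**Figure D4:**
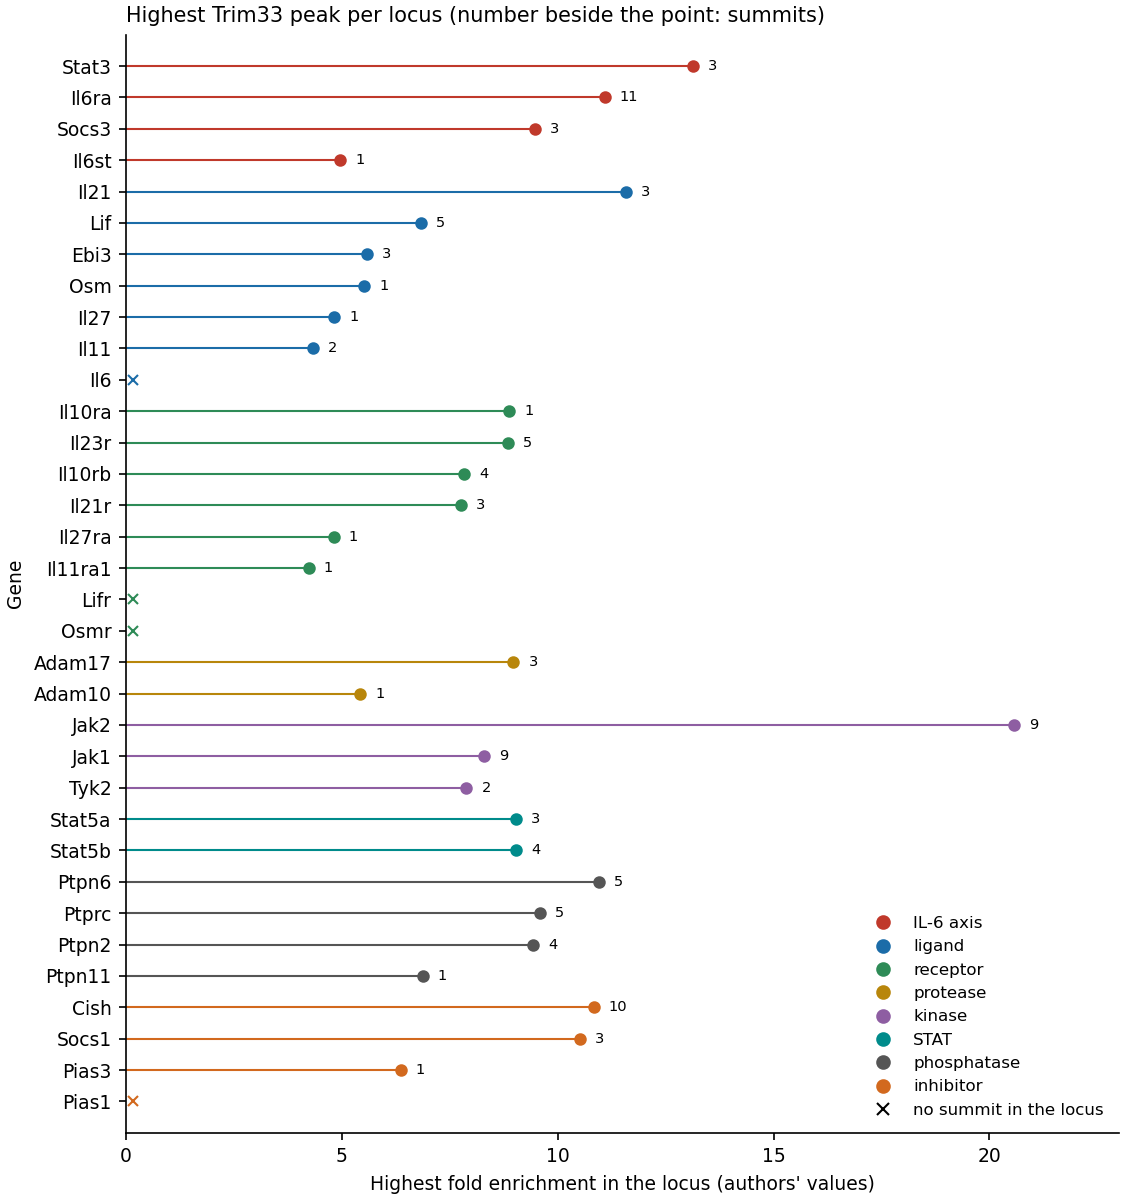
Highest fold enrichment in the locus of each of the 4 genes and of 30 other genes of gp130 and STAT3 signalling, grouped by role. The number beside a point counts the summits in the locus and a cross marks none. Jak2 (20.6-fold) stands above Stat3 (13.1-fold), and Il6, Lifr, Osmr and Pias1 have crosses.

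Genes commonly named as dependent on STAT3 in T cells formed the second list, and this dependence was not tested here. Of 18, 17 held a summit, 10 had one at a gene end and 7 reached 10-fold, against the same 53.9%, 33.4% and 10.1% of all genes. The median of the highest fold was 9.29. The highest were Il17f (16.0-fold), Bcl3, an atypical I-kappa-B protein (12.9-fold), Mcl1, a survival factor (12.5-fold), Il17a (12.4-fold) and Batf, an AP-1 factor needed for Th17 cells (11.2-fold). These peaks lay inside Il17f, Bcl3 and Batf, but outside Mcl1 and Il17a, at 6157 and 2246 bp from the gene. Fos, another AP-1 gene, held none.

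Genes most like each of the 4 were sought among those with the same number of summits, by the mean difference of their ordered log2 fold values. Stat3 was nearest to Rad23b (0.03) and Vps54 (0.09), out of 1523 genes with 3 summits. Socs3 was nearest to Tanc1 (0.03) and Ddx3x (0.04) out of the same number. Il6ra was nearest to Slc24a3 (0.12) and D16Ertd472e (0.14), out of 31 with 11 summits. For Il6st, with 1 value to compare, 1810024B03Rik and Adad2 had the same fold of 4.97.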

How the data were processed

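The deposited file was 1 peak list from the merged replicates of 2 Trim33 ChIP libraries. The submitters' processing notes name MACS2 (2.1.1.20160309), Bowtie (1.2.1.1) and Trim Galore (0.3.7), and mm10 as the build. How reads were filtered, which threshold and control the caller used and how deep each library was were not stated in the labels used here. For each peak the authors deposited a fold enrichment (a ratio at the summit), the −log10 of the q-value and a score, which restates the −log10 q and was not used.

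Summits were placed in RefSeq genes of GRCm38.p6 (21887 protein-coding genes on the chromosomes used) with Python 3.11.15 and pandas 2.3.3. Each gene was widened by 10 kb to both sides to give its locus, and summits at most 1000 bp from either end of the gene counted as gene-end summits. Start sites and promoter sequences came from RefSeq tables of the same build, in which all 4 genes were matched. Locus counts were tested on simulated data with planted summits.

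The 4 genes, the lists and the rule for named genes were chosen with earlier results of these data known. The rule takes the 4 genes, their neighbours at a summit, the 5 highest genes and up to 4 genes without a summit per list, and the 2 most like genes per member. Adam10, Adam17, Jak1, Tyk2, Stat5a, Stat5b, Socs1, She, Pgs1, Il31ra, Ankrd55 and the non-coding genes were named in addition, after their values were seen. The values of 1 pathway gene are not reported here, though counts and medians over the list include it. Alternatives were other flanks, gene-end windows, stricter peak sets, peak overlap and assignment to the nearest gene.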

Additional observations from a re-analysis of the deposited data

How the results depend on the processing

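Every value rests on 1 merged list, so the spread between cultures, the depth and the part of each library are unknown, and no library could be left out. No paired analysis was possible because the list was made from merged replicates. Of 93 values under 10 alternative settings, 73 kept their value or stayed within 1.5 times it. The 18 summits of the 4 loci became 37 with 50 kb on each side (a setting chosen after seeing the data), 8 with peaks at or above the median fold and 10 with peaks at or above the median −log10 q, by construction. With the stricter fold the pathway genes with a gene-end summit were 10 of 31, against 17, while the share of all protein-coding genes was 17.2%, against 33.4%. Il6st had no summit with 5 kb or none on each side, none among peaks at or above the median fold, and 10 with 50 kb. Where a gene still held a summit, the highest fold stayed the same in 26 of 29 values. With the stricter fold this was fixed by construction, and wider flanks could only keep or raise the highest fold. The highest fold was 4.68 at Stat3 with the gene body alone, since the promoter summit lies outside the annotated body, and 6.87 and 8.42 at Il6st with 25 and 50 kb.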

Other observations

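Beyond the 10 kb flank, Il6st had more and higher peaks than within it. From 20705 to 46030 bp upstream of the gene lay 8 summits, the highest of 8.42-fold at 25381 bp and of 8.24-fold at 36428 bp. The first of these stood with a pair of neighbours of 4.65-fold and 6.87-fold, and the 3 peaks together spanned 1355 bp. The nearest other protein-coding gene on that side was Ankrd55, which was farther away than Il6st for the 6 summits nearest to Il6st and nearer for the other 2. Those 2 also lay in the span of Gm33905, a gene that is not protein-coding. Which gene these sites belong to was not tested. Downstream of Il6st the next summit lay 44946 bp away, inside Il31ra, the gene of a receptor related to gp130.

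Of the summits just outside the limit, the nearest to its gene was 1 of 6.33-fold at 13719 bp from the 3′ end of Socs3, while the farthest inside it lay 7942 bp from Il6ra. Pgs1, upstream of Socs3, held 5 summits from 2.96-fold to 8.43-fold. On the 3′ side of Stat3, 4 summits lay in Stat5a and Stat5b, of 4.05-fold to 9.03-fold.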
